A study of Mus musculus with 6 samples.

Results

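Satellite cells were cultured from control mice and from mice with conditional knockout (cKO) of Hira, the gene of the H3.3 chaperone HIRA. In these cells the genes that encode the replacement variants of the core and linker histones, apart from H3.3, were read. They were 9 genes listed by name and found by gene symbol (GENCODE release M21) among the 55536 gene identifiers of the count files, with no threshold on their values: H2afx, H2afz, H2afv, H2afy, H2afy2 and H2afj of the H2A family, the linker histone genes H1f0 and H1fx, and Cenpa of the H3 family. All 9 were measured in every sample, with 158 to 4999 counts per sample, and all passed the filter on low counts that left 22404 genes to test.

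Most histone proteins come from replication-dependent genes, which lie in clusters, are copied into messenger RNAs without a poly(A) tail and are used while DNA is being replicated. Replacement variants are encoded elsewhere, mostly by single genes with polyadenylated messengers, and are put into chromatin outside replication by chaperones and remodellers of their own. HIRA is the chaperone that deposits H3.3 at active genes and regulatory regions, whereas H2A.Z, macroH2A, CENP-A and the linker histones are handled by other complexes.

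RNA sequencing was made on satellite cells, the stem cells of skeletal muscle, from C57BL/6J mice, as 3 control and 3 cKO samples. Control mice carried Pax7CreErt2 and Hira fl/+, as the study's methods give it (the labels call them WT), and cKO mice carried Pax7CreErt2 and Hira fl/fl. Both groups therefore carried the tamoxifen-inducible Cre driven by Pax7 and at least 1 floxed Hira allele, and deletion was limited to cells in which Pax7 was active. Control cells could thus lose 1 Hira allele. All animals were adults given tamoxifen, muscle was injured with barium chloride, CD34+ ITGA7+ cells lacking CD45, TER119 and SCA1 were sorted 5 days later, and the cells were kept for 48 h at low density in medium rich in serum before RNA was taken. Total counts were 47944477 to 63323577 per sample. Whether each sample came from a separate mouse was not stated, so p-values measure only the spread between these samples.

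Levels are given as normalised CPM, which are counts scaled to the library total (CPM) after TMM correction. Fold changes are those of cKO over control, tested by quasi-likelihood in edgeR, with p adjusted by the Benjamini-Hochberg method over all 22404 genes. Hira itself stood at 6.69, 5.54 and 5.61 normalised CPM in control and at 3.34, 4.88 and 4.86 in cKO. The groups did not overlap, and Hira fell by 0.43 on the log2 scale (SE 0.12, edgeR adjusted p = 0.0237), a call that was lost without control replicate 1 (adjusted p = 0.104). Reads counted as Hira remained in every cKO sample, and 44.7% of its exon bases are overlapped on the same strand by Gm28539. Among satellite cell markers, 15 of 16 passed the filter, and Pax7 (39.7 normalised CPM on average), Myf5 (69.1) and Myod1 (780), which define the lineage, were all present in control. Of the 2 positive sort markers, Itga7 stood at 620 in control and Cd34 at only 2.33. Chrdl2 stood at 0.303, and Calcr did not pass the filter. Muscle differentiation genes summed to 43358.1 to 44922.5 normalised CPM in control, against 3779 to 3799 for the satellite cell markers. These sums are not scaled by gene length, and the long gene Ttn alone held 13806.5 on average in control.

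The first sequences shown are those of the paired H2A.Z genes, because H2afz was 1 of the 2 genes whose level changed and H2afv encodes nearly the same protein. The opening 90 of the 387 coding bases are given for each, from its GENCODE M21 transcript (H2afz on mm10 chromosome 3, 137864487 to 137866922, plus strand; H2afv on chromosome 11, 6427229 to 6444443, minus strand), with capitals marking the bases that differ:
H2afz: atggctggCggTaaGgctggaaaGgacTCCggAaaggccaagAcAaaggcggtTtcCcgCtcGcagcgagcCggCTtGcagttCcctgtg
H2afv: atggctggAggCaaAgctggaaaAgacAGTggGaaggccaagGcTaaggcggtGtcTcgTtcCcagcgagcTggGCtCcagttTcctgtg
There were 19 differences in this stretch and 81 in the whole coding sequence, which left 79.1% identity and no identical run longer than 14 bases. No 75-base window was therefore common to both coding sequences. H2afz had copies elsewhere: 28.8% of its 75-base windows were shared with other annotated genes, pseudogenes among them, whereas H2afv shared none.

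The other sequences are the 250 bases before the RefSeq start (GRCm38.p6) of the 2 genes whose level changed, in opposite directions, with capitals marking CCAAT or its reverse complement ATTGG:
H2afz chr3:137864237-137864486, plus strand: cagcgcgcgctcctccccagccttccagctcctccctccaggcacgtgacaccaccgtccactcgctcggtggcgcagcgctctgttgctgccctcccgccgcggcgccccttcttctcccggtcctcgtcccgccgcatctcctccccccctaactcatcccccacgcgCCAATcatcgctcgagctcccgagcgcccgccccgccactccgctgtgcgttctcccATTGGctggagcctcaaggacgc
H1f0 chr15:79027962-79028211, plus strand: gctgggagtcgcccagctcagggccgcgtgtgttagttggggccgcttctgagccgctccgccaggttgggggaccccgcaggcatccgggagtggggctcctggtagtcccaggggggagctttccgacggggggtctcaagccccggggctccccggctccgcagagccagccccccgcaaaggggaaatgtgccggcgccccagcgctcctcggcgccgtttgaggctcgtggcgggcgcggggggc
CCAAT, the motif bound by the factor NF-Y, occurred 2 times in the H2afz window, at 80 and 23 bases before the start, and not in that of H1f0. Both windows were rich in G and C (71.2% and 74.4%, against a median of 52.4% over all promoters). For H1f0 the GENCODE gene begins 238 bases downstream of the RefSeq start. The windows of some other genes, Cenpa and H2afy among them, lie in part or whole within their GENCODE genes. Over the 8 genes with an entry in the promoter table (H2afx had none), CCAAT on either strand was found in 4, namely H2afz, H2afv, H2afj and Cenpa, and in 33.8% of all 32851 promoters. GGGCGG, the GC box, was found in 5 of 8 against 32.7% of all, TTTGAA, the cell-cycle element called CHR, in 1 of 8 (H2afv) against 16.0%, and neither TATAAA (12.4% of all) nor the E2F letters TTTCCCGC (0.895%) in any of the 8. The GC box and the reverse complement of the E2F letters can overlap, and CCAAT can overlap its own reverse complement. A match is a description of the letters only.

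Within the H2A family, H2afz fell in cKO and none of the other 5 genes passed the test. H2afz (ENSMUSG00000037894) encodes H2A.Z.1, the main form of the variant that flanks the start sites of active and poised genes. It stood at 55.7, 52.9 and 54.4 normalised CPM in control and at 49.4, 47.2 and 51.3 in cKO. The highest cKO value was thus under the lowest control value. The means were 54.3 ± 1.41 and 49.3 ± 2.05 (SD, n = 3 in each group). On the log2 scale H2afz fell by 0.14 (SE 0.04, 95% interval of the log2 fold change -0.22 to -0.056, edgeR adjusted p = 0.0241), a fold of 0.908. The call was lost without control replicate 1 (adjusted p = 0.108), control replicate 3 (0.0826) or cKO replicate 2 (0.0633), and under scaling by total counts (0.0540).

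Reads of H2afz can also fall on pseudogenes. Of the 4 annotated pseudogenes that share windows with it, Gm13007 was counted at 121, 141 and 112 in control and 90, 102 and 117 in cKO, or 3.83% as many reads as H2afz, and Gm6108 at 0.252%. The others held at most 1 count in a sample. With the pseudogenes added to H2afz, an alternative chosen after the data were seen, the log2 fold change was again -0.14 (edgeR adjusted p = 0.0235). These pseudogenes held 14.75% of the H2afz windows, against 28.84% shared with any annotated gene. Tmcc1 and Gm26623 also shared windows with H2afz and were not added.

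H2afv (ENSMUSG00000041126) encodes H2A.Z.2, the close relative of H2A.Z.1. Its level was 31.9, 33.1 and 32.9 normalised CPM in control and 29.9, 33.6 and 30.6 in cKO. The cKO samples spanned the control values, with replicate 2 the highest of all 6, and the log2 fold change was -0.05 (95% interval -0.15 to 0.046, edgeR adjusted p = 0.518). The ratio of H2afz to H2afv per length was 1.53 ± 0.0700 in control and 1.45 ± 0.138 in cKO, and the groups overlapped (two-sided exact permutation p = 0.5).

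H2afx (ENSMUSG00000049932; mm10 chromosome 9, 44334694 to 44336077, plus strand) encodes H2A.X, whose tail is phosphorylated around DNA double-strand breaks. It was read at 40.4, 39.3 and 37.7 normalised CPM in control and at 39.5, 34.2 and 36.3 in cKO. Of the cKO samples, 2 lay below all controls and replicate 1 lay above 2 of them. The log2 fold change was -0.09 (95% interval -0.20 to 0.011) and did not pass the test (edgeR adjusted p = 0.238), but without cKO replicate 1 it was -0.15 and passed (adjusted p = 0.0220). H2afx shared 6.87% of its windows with other genes, among them Gm44335 on the other strand and replication-dependent H2A genes. Part of its reads may therefore lie in common sequence.

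The macroH2A genes H2afy (ENSMUSG00000015937, macroH2A1; chromosome 13, 56073619 to 56136361, minus strand) and H2afy2 (ENSMUSG00000020086, macroH2A2; chromosome 10, 61738665 to 61784147, minus strand) encode H2A variants with a large globular domain, found on the inactive X and other silent chromatin. H2afy stood at 43.3, 43.0 and 44.0 normalised CPM in control and at 42.6, 45.7 and 42.2 in cKO. Its means of 43.4 ± 0.501 and 43.5 ± 1.88 gave a log2 fold change of 0.0025 (95% interval -0.082 to 0.087, edgeR adjusted p = 0.980), the value nearest 0 among the 9 genes and one whose sign turned under DESeq2 (-0.0030). H2afy2 was lower, at 12.1, 12.8 and 12.6 in control and 13.0, 12.7 and 13.8 in cKO, with a log2 fold change of 0.07 (95% interval -0.044 to 0.19, adjusted p = 0.436). Of the cKO samples of H2afy2, 2 exceeded all controls and 1 lay among them. The ratio of H2afy to H2afy2 per length was 1.11 ± 0.0356 in control and 1.06 ± 0.0843 in cKO (log2 difference -0.07, two-sided exact permutation p = 0.5), and the log2 difference lay between -0.13 (without cKO replicate 2) and -0.020 (without cKO replicate 3) when 1 sample was left out.

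H2afj (ENSMUSG00000060032; chromosome 6, 136808244 to 136810074, plus strand) encodes H2A.J, a close relative of canonical H2A known for accumulating in senescent cells. Its values were 12.1, 12.8 and 11.02 normalised CPM in control and 13.2, 12.5 and 12.8 in cKO. The groups overlapped, and the log2 fold change of 0.10 (95% interval -0.038 to 0.23) did not pass the test (edgeR adjusted p = 0.362).

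Of the linker histone variants, H1f0 rose in cKO. H1f0 (ENSMUSG00000096210; chromosome 15, 79028450 to 79030504, plus strand) encodes H1.0, the replacement linker histone known for building up in cells that stop dividing or differentiate. It stood at 79.4, 77.3 and 79.0 normalised CPM in control and at 90.4, 83.2 and 89.1 in cKO. All cKO samples lay above all controls, with replicate 2 the lowest within each group. The means were 78.6 ± 1.09 and 87.6 ± 3.83, a log2 fold change of 0.16 (SE 0.04, 95% interval 0.079 to 0.23, edgeR adjusted p = 0.00765), or 11.4% more. Without control replicate 2 the log2 fold change was 0.14 and no longer passed (adjusted p = 0.0549). On the other strand, Gm49544 covers 7.93% of the exons of H1f0.

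H1fx (ENSMUSG00000044927; chromosome 6, 87980421 to 87981637, minus strand) encodes H1.X, the most divergent somatic linker histone. It was the least read of the 9 genes, at 3.10, 3.92 and 3.68 normalised CPM in control and 3.28, 3.93 and 3.77 in cKO, from 158 to 246 counts. In each group replicate 1 was the lowest, and the groups overlapped over nearly all of their range. The fold was 1.03 with a 95% interval of 0.877 to 1.202 (edgeR adjusted p = 0.873), so a change of the size seen for H1f0 or H2afz was not detectable at this depth. Counting error alone at its lowest count was 7.96%, against 1.51% for H1f0. Gm5577 overlaps 17.5% of the exons of H1fx on the other strand.

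Cenpa (ENSMUSG00000029177; chromosome 5, 30666777 to 30674830, plus strand) encodes CENP-A, the H3 variant that marks centromeres. It was read at 27.8, 28.6 and 28.6 normalised CPM in control and 27.4, 28.0 and 27.0 in cKO. Of the cKO samples, 2 lay below all controls and replicate 2 lay among them. The log2 fold change was -0.05 (95% interval -0.13 to 0.040, edgeR adjusted p = 0.526).

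**Figure D1:**
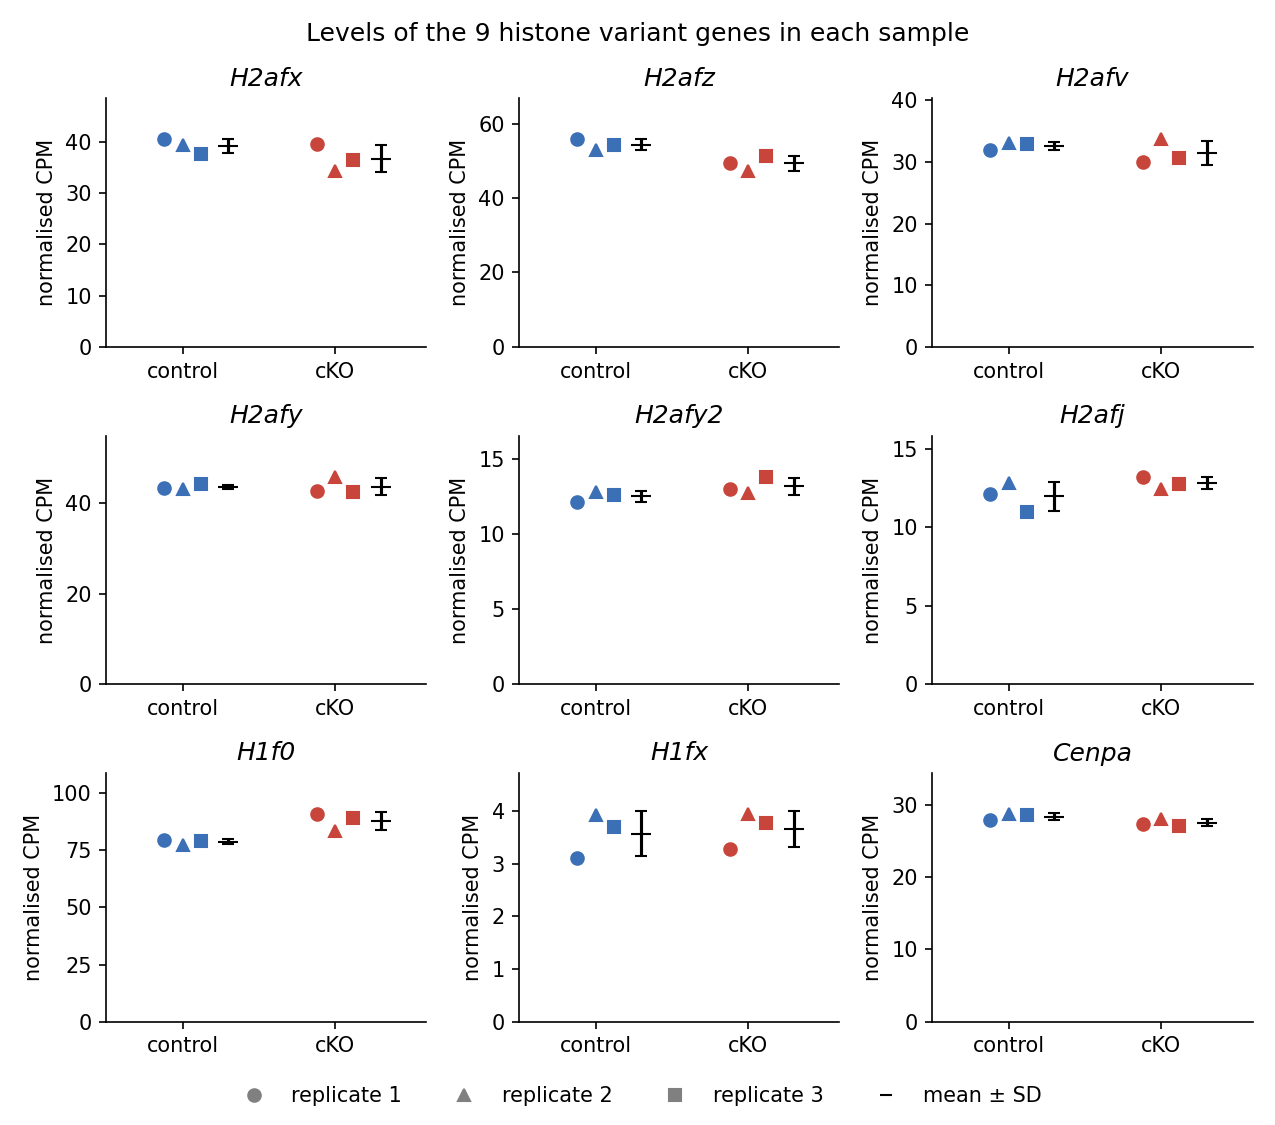
Normalised CPM (y axis, from 0, with its own scale in each panel) of the 9 variant genes in the 3 control (blue) and 3 cKO (red) samples, with the mean and SD as bars and the replicate number as the marker shape. The groups separate without overlap for H2afz (cKO lower, 47.2 to 51.3 against 52.9 to 55.7) and H1f0 (cKO higher, 83.2 to 90.4 against 77.3 to 79.4) and overlap for the other 7.

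Counted together, 1 of the 9 genes was higher in cKO (9.38% of all tested genes were), 1 was lower (6.46% of all tested genes were) and 7 passed in neither direction. The 2 genes called stand beside 15.8% of all genes called in either direction. Groups did not overlap for the same 2 of the 9, against 31.8% of all tested genes. Fold changes lay above 0 for 5 genes and below 0 for 4, with a median log2 of 0.0025 beside -0.0011 for all genes. Of the 7 genes that did not pass, 6 had a 95% interval that stayed within 0.25 of 0 on the log2 scale, H1fx being the exception. That bound is wider than the called changes, and the intervals of H2afz and H1f0 also stayed within it. Of the 6, the intervals of H2afx, H2afv, H2afj and H2afy2 reached -0.14 or 0.16, the called changes of H2afz and H1f0. A change of that size was therefore not excluded for them. Those of H2afy and Cenpa did not reach it. The summed level of the 9 genes was 303.8 to 305.8 normalised CPM in control and 301.1 to 308.7 in cKO.

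**Figure D2:**
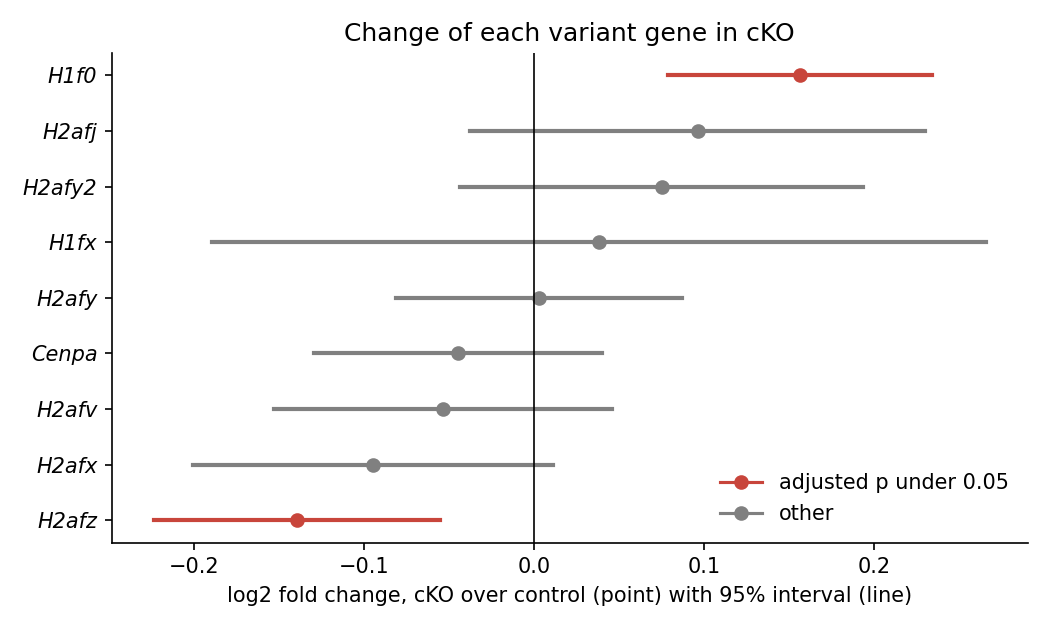
Log2 fold change of cKO over control (x axis) for each variant gene (y axis, sorted), with points for the edgeR estimate, lines for its 95% interval and red for an adjusted p under 0.05. The intervals of H1f0 (0.079 to 0.23) and H2afz (-0.22 to -0.056) leave out 0, and the interval of H1fx is the widest.

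Leaving out 1 sample at a time moved the fold change of H2afz between -0.17 and -0.11 and that of H1f0 between 0.13 and 0.19, with no change of direction. H2afx lay between -0.15 and -0.051. The calls followed the sample left out: H2afz passed in 3 of the 6 fits, H1f0 in 5 and H2afx in 1.

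**Figure D3:**
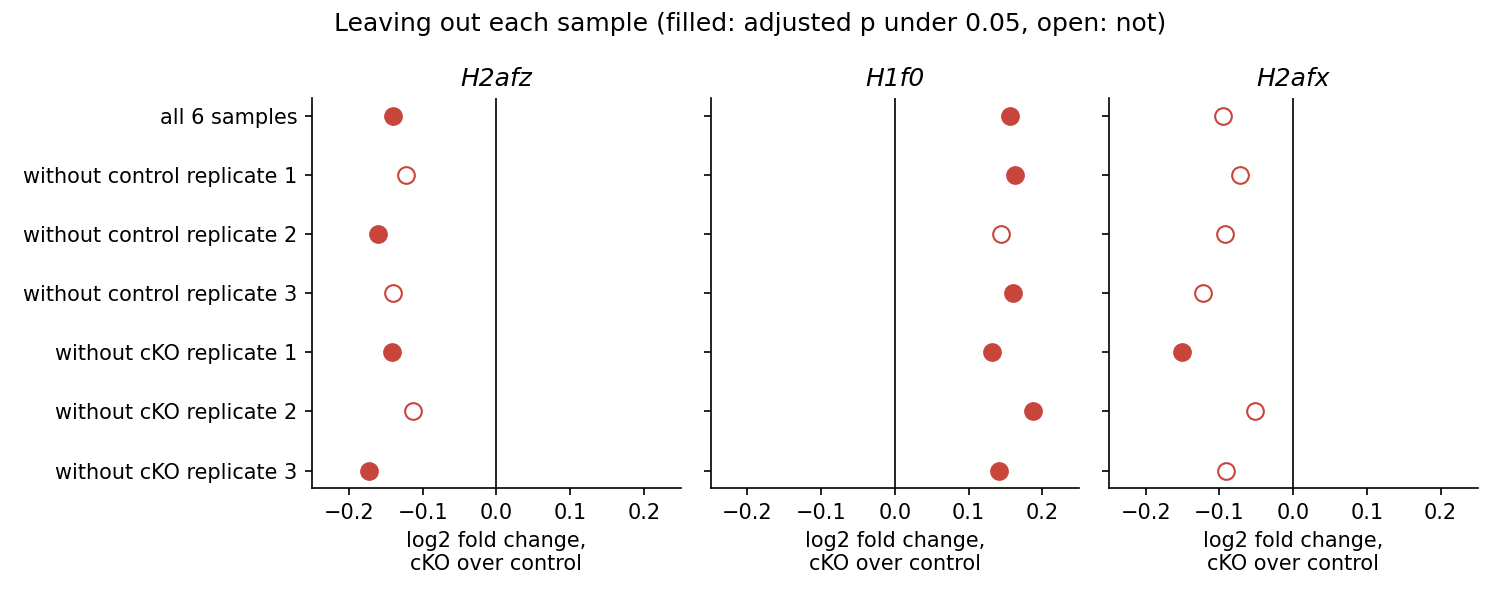
Log2 fold change (x axis) of H2afz, H1f0 and H2afx from all 6 samples and after dropping any single sample (y axis), filled where the edgeR adjusted p was under 0.05 and open where it was not. Every point of H2afz and H2afx lies below 0 and every point of H1f0 above it, with 3 filled of 6 such fits for H2afz, 5 for H1f0 and 1 for H2afx.

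Between genes, levels were compared per kilobase of exon (RPKM, the normalised CPM divided by the length of all annotated exons). In control, H1f0 was highest at 38.2 ± 0.532 RPKM, followed by H2afz at 30.6 ± 0.796, H2afx at 28.3 ± 0.998 and H2afv at 19.97 ± 0.403. A gap then separated H2afj at 6.54 ± 0.493, H2afy at 6.38 ± 0.0736, H2afy2 at 5.75 ± 0.168, Cenpa at 4.84 ± 0.0797 and H1fx at 2.93 ± 0.344. The highest and lowest differed 13.0-fold. Of the 8 neighbouring pairs in this order, 7 did not overlap over the control samples, and H2afj and H2afy did. The order was the same in cKO for all 9 genes. It rested on the exon length chosen: per length of the longest transcript, H2afz came first at 50.8 RPKM and H1f0 next, H2afy stood at 10.8 and Cenpa at 7.45, and 3 of the 9 ranks were kept. Among all tested genes, the control level per length of H1f0 was at percentile 91.3, that of H2afz at 89.4 and that of H1fx at 50.3.

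**Figure D4:**
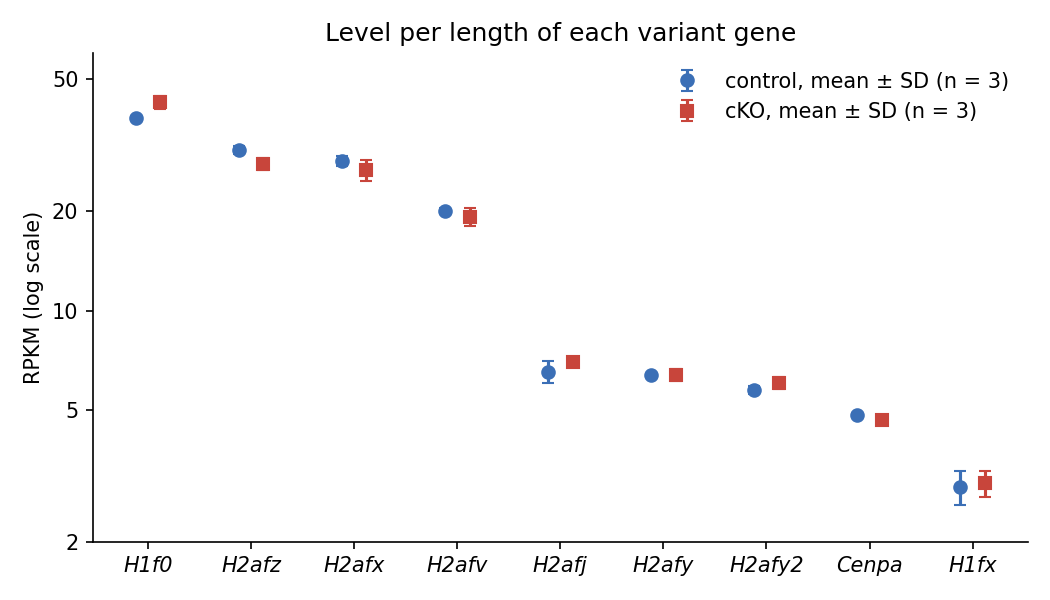
Level per length (RPKM, log axis) of each variant gene in control (blue circles) and cKO (red squares), as mean and SD over 3 samples, sorted by the control mean. H1f0, H2afz, H2afx and H2afv lie at 19.2 RPKM or more and the other 5 genes at 7.001 or less in both groups.

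Each variant was then set against its family, as its share of the length-scaled reads of all genes that encode the same kind of histone. With 3 samples against 3 the smallest two-sided exact permutation p is 0.1, so none of the 13 ratios and shares could pass the threshold. H1f0 took 7.15, 6.94 and 7.23% of the reads of the H1 family in control and 8.27, 8.40 and 8.30% in cKO. The groups were well apart (7.11 ± 0.151 against 8.32 ± 0.0665%, exact permutation p = 0.1, 0.325 after adjustment over the 13), and the 5 replication-dependent H1 genes took 92.3 ± 0.134 and 91.1 ± 0.146%. Of these 5, only 2 share no window with another gene. With only those 2 the log2 difference of the H1f0 share was 0.28, against 0.23 with all. Hist1h1d has 7425 annotated exon bases against 741 for Hist1h1a, so its reads weigh less. H1fx took 0.545 ± 0.0639 and 0.589 ± 0.0817% (exact permutation p = 0.5). In the H2A family the replication-dependent genes held 64.8 ± 1.07% of the reads in control and 62.8 ± 2.40% in cKO.

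H2afz, whose level was lower in cKO, held 11.05 ± 0.597% of the H2A family in control and 11.1 ± 0.497% in cKO, a difference smaller than the spread between replicates (exact permutation p = 1). The sum of normalised CPM over the replication-dependent H2A genes was 91.3 to 99.0 in control and 75.3 to 91.8 in cKO. The share of H2afj was 2.36 ± 0.102% in control and 2.80 ± 0.165% in cKO and that of H2afy2 2.07 ± 0.0696 and 2.43 ± 0.136%, in each case with no overlap and with the smallest p the design allows (exact permutation p = 0.1). H2afx, H2afv and H2afy overlapped between the groups (10.2 and 10.6%, 7.21 and 7.73%, 2.302 and 2.567%). Of the 64 replication-dependent genes 60 share windows with another gene, all 17 of the H2A type among them, so reads of that denominator may be split or lost.

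**Figure D5:**
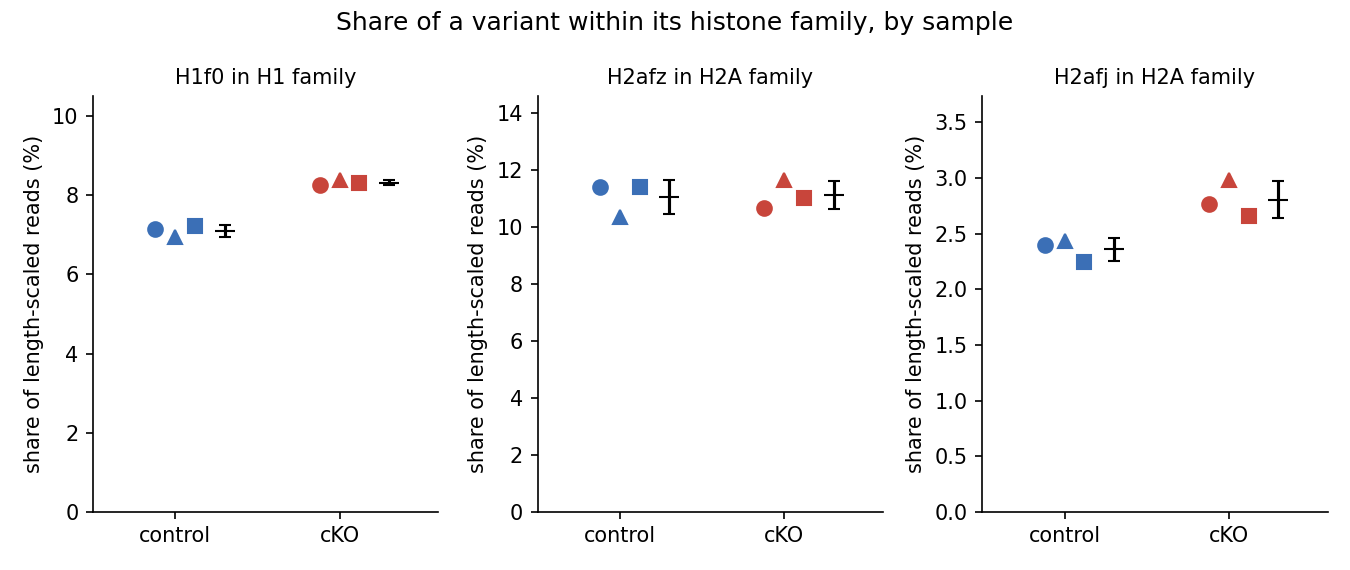
Share of a variant in the length-scaled reads of its histone family (y axis, percent, from 0) for H1f0 in the H1 family and for H2afz and H2afj in the H2A family, by sample, with marker shape for the replicate and bars for mean and SD. H1f0 lies at 6.94 to 7.23% in control and 8.27 to 8.40% in cKO, H2afj also separates, and H2afz lies at 10.4 to 11.4% and 10.7 to 11.7%.

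The replication-dependent histone genes are the usual comparison for the variants. Of the 59 that passed the filter, 1 (Hist3h2a) rose, 32 fell and the median log2 fold change was -0.22. The H4 genes fell in 13 of 13 cases with a median of -0.50, the H3 genes in 9 of 10 and the H2B genes in 8 of 16. The H1 genes, relatives of H1f0, fell in 1 of 5 (Hist1h1a, -0.19, edgeR adjusted p = 0.000723) with a median of -0.02. The H2A genes, relatives of the H2A variants, fell in 1 of 15 and rose in 1 of 15 with a median of -0.21. The 9 variant genes, with 1 higher and 1 lower, had a median of 0.0025. Without control replicate 2, 20 of the replication-dependent genes fell.

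The partners of the variants were counted over 6 lists with 102 genes tested. Of these 4 rose and 9 fell, beside 9.38% and 6.46% of all tested genes, and the median log2 fold change was -0.05, with 71 of 102 below 0. Without control replicate 2, 5 of them fell. The 27 genes for deposition and removal of H2A.Z included the SRCAP, p400 and INO80 remodellers and their subunits. Of these 27 only Anp32e passed, the chaperone that takes H2A.Z off chromatin. Anp32e stood at 181 ± 0.915 normalised CPM in control and 154 ± 3.51 in cKO, a log2 fold change of -0.24 (edgeR adjusted p = 5.56e-05), which was the same direction as that of H2afz. Srcap, the catalytic subunit of its remodeller, was at -0.17 (adjusted p = 0.255). The list's median was -0.02.

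Around linker histones, the list of chaperones and of proteins that compete with H1 for nucleosomes had 2 of 16 genes higher and 4 lower, with a median of -0.05. Hmga1, which encodes an AT-hook protein that displaces H1, rose from 59.6 ± 1.52 to 89.7 ± 1.41 normalised CPM (log2 fold change 0.59, edgeR adjusted p = 1.14e-08), and Hmgn3, a nucleosome-binding protein, rose by 0.22 (adjusted p = 0.0109). Hmgn2, of the same family as Hmgn3, fell by 0.15 (adjusted p = 0.00657). Ncl, which encodes nucleolin and is best known for its part in making ribosomes, fell by 0.31 (adjusted p = 0.00774), and Hmgb2, a DNA-bending protein abundant in dividing cells, by 0.20 (adjusted p = 0.0120).

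For H2A.X, 2 of the 21 genes for its phosphorylation and reading rose and 3 fell, with a median of -0.05. Trp53bp1, which binds chromatin at breaks, fell by 0.13 (edgeR adjusted p = 0.0151) and Bard1, the partner of BRCA1, by 0.21 (adjusted p = 0.0195), while Nbn of the MRN complex rose by 0.13 (adjusted p = 0.0483). The Eya phosphatases, which act on H2A.X and are also co-activators of homeobox factors in muscle, did not move together: Eya4 fell from 225 ± 3.40 to 195 ± 3.72 normalised CPM (log2 fold change -0.20, adjusted p = 0.000207) and Eya2 rose from 3.48 ± 0.102 to 4.71 ± 0.517 (0.44, adjusted p = 0.00438), while Eya1 at -0.05 (adjusted p = 0.623) and Eya3 at -0.07 (adjusted p = 0.190) did not pass. Atm, the kinase that phosphorylates H2A.X at breaks, was at -0.05 (adjusted p = 0.383).

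Among the partners of CENP-A and macroH2A only Cenpp passed. None of 12 genes for loading CENP-A passed, with a median of -0.08, and its chaperone Hjurp was at 144 ± 2.53 and 147 ± 2.43 normalised CPM (log2 fold change 0.03, edgeR adjusted p = 0.589). Of 16 genes of the complex that sits on CENP-A chromatin, Cenpp fell, at 4.52 ± 0.462 and 3.49 ± 0.0279 normalised CPM (-0.37, adjusted p = 0.0120). None of 13 macroH2A partners passed, with a median of -0.02, and Parp1, whose product binds macroH2A, was at -0.05 (adjusted p = 0.352).

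Other gene groups moved between the same samples. Macrophage markers were higher in cKO in 22 of 24 cases, with a summed level of 216 to 223 normalised CPM in control and 447 to 520 in cKO, and none of the 25 was at 0 in all samples. Fibroblast markers rose in 12 of 18 (sums 2183 to 2296 and 2784 to 3085), endothelial markers in 8 of 20 (sums 43.7 to 46.7 and 61.6 to 72.2), and satellite cell markers fell in 11 of 15 and rose in 1 (sums 3779 to 3799 and 3376 to 3441). Of 29 proliferation genes 8 fell, Rrm2 of nucleotide synthesis among them (-0.17, edgeR adjusted p = 0.000543), none rose and 26 lay below 0, with a median of -0.08. Of 20 muscle differentiation genes 14 fell and 1 rose. Counts moved with single samples: 4 proliferation genes fell without control replicate 2 or 3, 9 muscle differentiation genes fell without control replicate 1, and 4 or 5 endothelial markers rose without control replicate 2 or 3 or cKO replicate 2. The part of these groups in the values of H1f0 and H2afz was not tested, and in bulk RNA fewer cells of a type and less RNA per cell cannot be told apart.

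By the Pearson correlation of log2 normalised CPM over the 6 samples, among 10483 genes with a mean of at least 10, the genes most like H2afz were Mapk8 (r = 0.997), Zfp322a (0.996) and Dlat (0.995), with log2 fold changes of -0.10, -0.13 and -0.08. Those most like H1f0 were Rnf122 (0.994), Khdc4 (0.994) and Snx18 (0.992), with 0.09, 0.07 and 0.07. The 6 points share libraries and the 2 groups, and these correlations are given as a description with no test.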

How the data were processed

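The authors aligned 75-base single-end reads of ribosome-depleted RNA (stranded total RNA libraries from 400 ng) to mm10 with Bowtie2 2.3.4.2 and counted reads per gene with featureCounts 1.6.3, per the labels and the study's methods. The strand setting, annotation release and treatment of reads with several matches were not given in the sources used here. The deposited files used were the 6 tables of raw counts per Ensembl gene. A table of values normalised by the authors was not used, nor one of their own comparison (mean, log2 fold change, its SE, statistic and p-values).

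All 55536 identifiers matched GENCODE M21, from which symbols, positions and exon lengths were taken. Genes were filtered with filterByExpr, scaled by TMM and tested with edgeR 4.0.16 in R 4.3.3 (quasi-likelihood, genotype only, Benjamini-Hochberg, adjusted p under 0.05). The common biological coefficient of variation was 3.92%. DESeq2 1.42.0, RLE factors, total counts, no filter, a likelihood-ratio test, a replicate block, a threshold of 0.01 and leaving out each sample were alternatives. Fits were tested on simulated counts. Replicate counts differed by 2.03 to 9.29 times sampling noise (chi-square over degrees of freedom), so none was a duplicate. Whether replicate numbers pair the samples was not known, and the main fit did not pair them. Shares and ratios were tested by two-sided exact permutation (scipy 1.17.1). Shared 75-base windows were counted between all annotated transcripts.

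The 9 genes and the 15 gene lists were chosen with earlier results of these data known. Named genes are the 9, Hira, up to 4 called genes per list with the smallest adjusted p and 1 not called, and the 3 genes most correlated with each called variant. Nbn, Eya1, Eya3, Hmgn3, Hmgb2, Hist3h2a, Pax7, Myf5, Myod1, Itga7, Cd34, Chrdl2 and Calcr were named after their values were seen. Values of 1 called gene among the partners of the variants are left out here.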

Additional observations from a re-analysis of the deposited data

How the results depend on the processing

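H2afz and H1f0 kept their direction in every alternative run, with adjusted p of 0.00687 to 0.108 and 0.000811 to 0.0549. Scaling by total counts, which moved the median of all genes by 0.024 on the log2 scale, put H2afz at -0.12 (edgeR adjusted p = 0.0540) and left 0 variants lower. An adjusted p under 0.01 left 0 variants lower and 1 higher, and 2 partners higher and 5 lower. Leaving out 1 sample gave log2 fold changes of -0.17 to -0.11 (H2afz), 0.13 to 0.19 (H1f0), -0.15 to -0.051 (H2afx), -0.039 to 0.021 (H2afy), -0.050 to 0.11 (H1fx) and -0.52 to -0.29 (Hira), 0 to 1 variants higher, 0 to 2 lower, and 5 to 13 partners lower. H2afy changed sign with DESeq2 (-0.0030), RLE factors (-0.00012) and no filter (-0.0022). Log2 differences of shares also changed sign: H2afz -0.036 to 0.038 and H2afv -0.023 to 0.16 with 1 sample left out, and H2afx -0.026 and H2afz -0.071 without genes that share windows, where the H2A family holds only variants. The cause was not tested.

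With the replicate number as a block, H2afz was at -0.14 (edgeR adjusted p = 0.0281) and H1f0 at 0.16 (adjusted p = 0.00991), and 1 variant was higher and 1 lower, as without it. Over all tested genes, same-numbered samples did not deviate together from their group means (correlations of -0.0129, -0.00449 and -0.0145). With 3 samples per group this cannot exclude that same-numbered samples were handled together. DESeq2 gave adjusted p of 0.0244 for H2afz and 0.00624 for H1f0. H1fx had the fewest counts of the 9 genes.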
